A study of Bos taurus with 11 samples.

Results

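Steroid and oxytocin receptors of the bovine endometrium were examined as a set of 9 genes: the oestrogen receptors ESR1 and ESR2, the progesterone receptor PGR, the membrane-associated progesterone receptor components PGRMC1 and PGRMC2, the glucocorticoid receptor NR3C1, the oxytocin receptor OXTR, the co-chaperone FKBP5 and the cortisone-activating enzyme HSD11B1. The genes were chosen by name, with earlier results of these data known. Of the 9, 8 were matched to a probe set that the platform annotation assigns to a single symbol, out of 9155 genes named in this way. PGRMC2 was not matched and has no value here. The endometrium, the inner lining of the uterus, came from multiparous black and white Holstein-Friesian cows killed 14 ± 0.4 days after calving, with 1 array per animal. Their parity averaged 4.7 and they had given 6477 ± 354 kg of milk in the lactation before (errors as labelled, of unstated kind). From day 2 after calving, cows in mild negative energy balance (n = 5) had silage without restriction with 8 kg of concentrate daily and 1 milking a day. Cows in severe negative energy balance (n = 6) had 25 kg of silage with 4 kg of concentrate daily and 3 milkings a day. Every animal was lactating and in early recovery from calving, and a cow outside negative energy balance was not analysed here, so each difference is one of degree.

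Steroid hormones enter cells and bind nuclear receptors, which are held ready by heat shock chaperones and then act on DNA with coactivators and corepressors. In the cycling uterus, oestrogen acting through ESR1 promotes growth of the lining and the appearance of its own and of progesterone receptors, and progesterone acting through PGR later lowers both. OXTR couples oxytocin to calcium release, and in ruminant endometrium it drives the pulses of prostaglandin that end the luteal phase. Cortisol acts through NR3C1, HSD11B1 makes cortisol from inactive cortisone inside the cell, and FKBP5 is a target of NR3C1 that in turn reduces the receptor's affinity for hormone. The comparison asks whether these transcripts differ between mild and severe negative energy balance soon after calving.

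Signals are log2 values, so a step of 1 is a doubling, and the signal of one gene's probe set is not compared with that of another. A signal is called dim below 5.52, under which 40% of probe sets lie by their mean, and differences between dim signals are compressed. The main probe sets of ESR1, ESR2 and PGR were dim on average, and those of the other 5 measured genes were not. Each array had a median of 6.20, and the mean correlation of an array with the others ran from 0.969 to 0.983, lowest in severe 5 and mild 2. The labelled tissue was checked against marker genes. Of 14 measured epithelial markers 2 were dim, the keratin KRT8 and the transcription factor OVOL1, and 0 of 12 stromal and 0 of 10 smooth muscle markers were dim. Neutrophil markers averaged higher in severe cows for 7 of 7 genes, and their score, the mean deviation of the markers from their means over all cows, ran from -2.26 to -0.73 in mild and from -0.39 to 2.45 in severe cows. Markers of T and NK cells were higher for 11 of 12 genes (median difference 0.75, scores -0.75 to 0.07 in mild and -0.16 to 0.87 in severe cows), and 8 had an unadjusted p under 0.05. Those of B and plasma cells were higher for 5 of 5 (median difference 1.80, scores -1.49 to 0.44 in mild and -1.07 to 2.30 in severe cows), all 5 with an unadjusted p under 0.05. The part of these cell types in the results was not tested beyond the covariate fits given below. In whole tissue, fewer cells of a type and less RNA per cell cannot be told apart.

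None of the 8 genes passed the test, and the receptor with the largest difference was ESR1, lower in severe cows. With limma and Benjamini-Hochberg adjustment over 24016 probe sets, 0 of 8 passed an adjusted p of 0.05, as did 0 of 24016 (0.0%) in all. Without severe 1 there were 16 in all and without severe 3 there were 2, none of them among the 8 genes. At an unadjusted p under 0.05 there was 1 of the 8, ESR1, against 3085 of 24016 probe sets (12.8%). Among 9155 genes with 1 probe set each, the like measure for the 8, it was 15.9%. Those higher in severe cows made up 6.97% of all probe sets and those lower 5.88%, or 8.45% and 7.46% of all genes. The groups overlapped in 8 of 8 genes, as they did in nearly all others: 1.07% of all probe sets and 1.19% of all genes did not overlap. In the mean, 3 of the 8 were higher and 5 lower in severe cows. Of all probe sets 47.8% were higher and 52.2% lower, and of all genes 48.9% and 51.1%. The median log2 difference of the 8 was -0.07, against -0.01 over all probe sets.

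**Figure D1:**
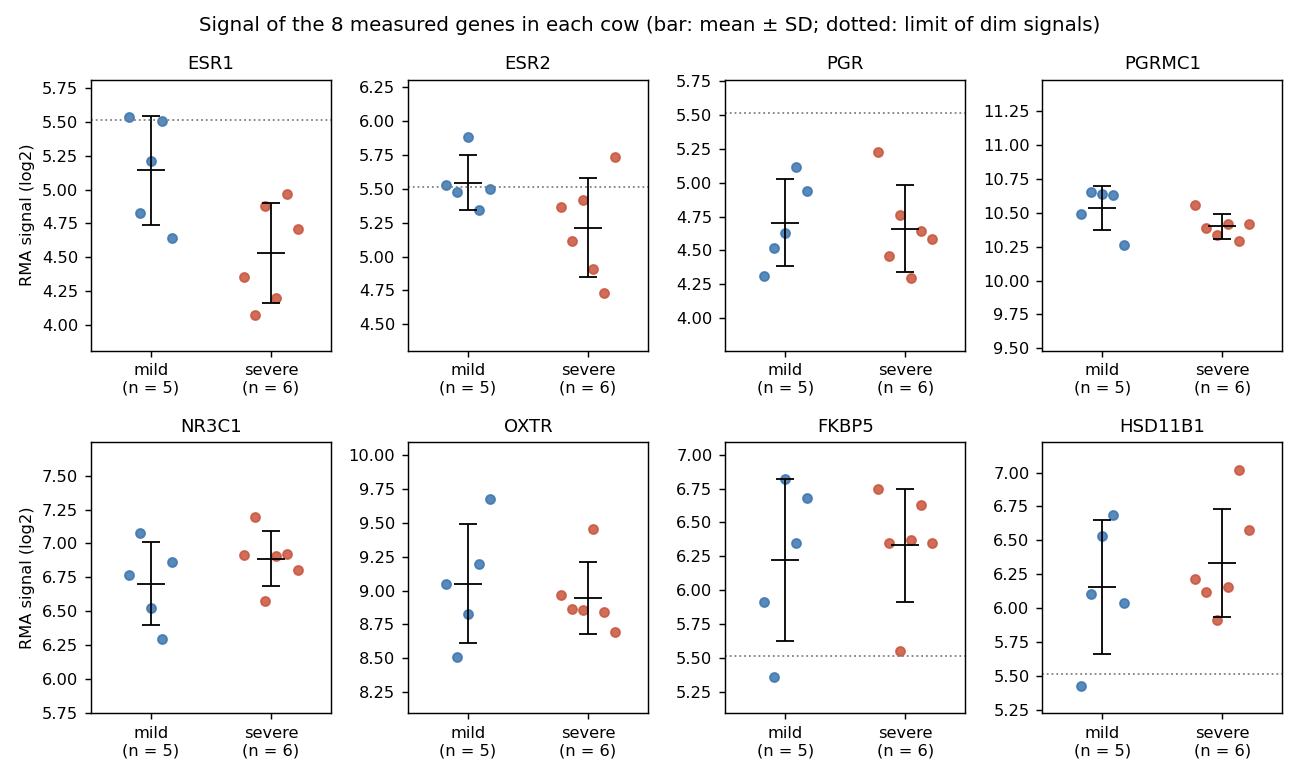
RMA signal (log2, vertical axis) of the main probe set of each of 8 genes in each cow, mild (blue, n = 5) and severe (red, n = 6); horizontal bars with whiskers are the mean ± SD, the dotted line marks the dim limit of 5.52, and each panel spans the same length of axis. The 6 severe cows lie below the mild mean for ESR1, while the groups overlap in every panel.

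ESR1 encodes oestrogen receptor alpha, the main oestrogen receptor of the uterus. Its signal was 5.53, 4.82, 5.21, 5.51 and 4.64 in mild 1 to mild 5, and in severe cows the lowest, median and highest were 4.08, 4.53 and 4.96. All 6 severe cows lay below the mild mean and 3 of them below the lowest mild cow, but the other 3 lay within the mild range. The means were 5.14 ± 0.40 (SD, n = 5) in mild and 4.53 ± 0.37 (SD, n = 6) in severe cows, which differ by -0.61 ± 0.21 (SE) on the log2 scale, with a 95% interval from -1.07 to -0.15 and a limma adjusted p of 0.312. Its unadjusted p was 0.0136, and 1.44% of all probe sets had a difference this low or lower. That rank ignores spread, and the pooled within-group SD of ESR1, 0.39, was larger than that of 86.9% of probe sets. Dim signals make up nearly all of these values, 4 of 5 in mild and 6 of 6 in severe cows, so the size of the difference is not exact.

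The ESR1 difference stayed between -0.74 and -0.51 when each cow was left out in turn. With the marker score of another cell type as a covariate it was -0.68 (epithelial score), -0.64 (stromal fibroblast score), -0.53 (smooth muscle score) and -0.96 (neutrophil score). Every mild cow had a lower neutrophil score than every severe cow, so this last covariate is strongly tied to the grouping. The score also varied within the groups, from -2.26 to -0.73 in mild and from -0.39 to 2.45 in severe cows. Group and score cannot be cleanly separated in this fit. Adjusted p over the 20 alternatives ran from 0.173 to 0.874, and the unadjusted p was under 0.05 in 20 of 20.

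ESR2, oestrogen receptor beta, had a mean difference of the same sign. Mild 1 to mild 5 were at 5.53, 5.48, 5.88, 5.34 and 5.50, and severe cows had a lowest signal of 4.73, a median of 5.24 and a highest of 5.74. In 3 severe cows the signal was under the lowest mild cow, while severe 6, the highest, stood above 4 of the 5 mild cows. The means were 5.55 ± 0.20 and 5.21 ± 0.37, a log2 difference of -0.33 ± 0.17 (SE) with an interval from -0.70 to 0.04 (limma adjusted p = 0.440). As reported, its limma unadjusted p was 0.074. Without severe 6 the difference was -0.44 (limma unadjusted p = 0.0135, adjusted p = 0.46), the 1 of 20 alternatives with an unadjusted p under 0.05. The ESR2 difference was -0.24 without severe 5 (limma unadjusted p = 0.152). Given the neutrophil score as a covariate it was -0.07 (limma unadjusted p = 0.811).

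PGR, the nuclear receptor of progesterone, was dim in 11 of 11 cows. Its signals in mild 1 to mild 5 were 4.31, 4.52, 4.63, 5.12 and 4.94, and those of severe cows ran from 4.30 to 5.23 around a median of 4.62. The groups covered nearly the same range. Its log2 difference was -0.04 ± 0.18 (SE), with an interval from -0.43 to 0.35 and a limma adjusted p of 0.940. The sign turned without mild 4 (0.06), without mild 5 (0.02) and without severe 4 (0.03).

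PGRMC1, a haem-binding membrane protein linked to rapid actions of progesterone, had bright signals in every cow. Mild 1 to mild 5 were at 10.49, 10.65, 10.64, 10.63 and 10.27, and severe cows had a lowest signal of 10.29, a median of 10.40 and a highest of 10.56. Mild 5 was lower than every other cow, and the other mild cows lay at or above the middle of the severe range. The log2 difference was -0.14 ± 0.08 (SE), with an interval from -0.32 to 0.05 (limma unadjusted p = 0.134, adjusted p = 0.521). Without mild 5 it was -0.20 (limma unadjusted p = 0.0168, adjusted p = 0.229), the 1 of 23 alternatives with an unadjusted p under 0.05. The second probe set of PGRMC1, with a mean signal of 6.81, went the other way at 0.10 ± 0.15 (SE), and the mean over both was -0.02. The pooled within-group SD of the main probe set, 0.13, was larger than that of 23.8% of probe sets.

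NR3C1, the glucocorticoid receptor, was slightly higher in severe cows in the mean. Signals were 6.76, 7.08, 6.52, 6.29 and 6.86 in mild 1 to mild 5, against a lowest of 6.57, a median of 6.91 and a highest of 7.20 in severe cows. In 5 of 6 severe cows the signal was above the mild mean, but only 1 exceeded the highest mild cow. The log2 difference was 0.18 ± 0.14 (SE), with an interval from -0.13 to 0.50 (limma adjusted p = 0.614). It was 0.08 without mild 4, 0.12 without severe 2, 0.28 without mild 2 and 0.41 given the neutrophil score as a covariate. The second NR3C1 probe set was dim in 11 of 11 cows, at 3.13 to 3.60, and differed by -0.14.

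FKBP5, the co-chaperone that NR3C1 induces and that restrains it, varied between animals more than the receptor did. Mild 1 to mild 5 were at 5.91, 5.36, 6.82, 6.35 and 6.68, and severe cows ran from 5.55 through a median of 6.36 to 6.74. Mild 2, the only dim value, and severe 3 were the lowest of their groups, and the other cows of both groups shared the range from 5.91 to 6.82. The log2 difference was 0.11 ± 0.27 (SE), with an interval from -0.49 to 0.71 (limma adjusted p = 0.899). It was -0.11 without mild 2 and 0.26 without severe 3. The pooled within-group SD of 0.51 was larger than that of 93.0% of probe sets.

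HSD11B1, which raises cortisol inside cells, had signals of 5.43, 6.10, 6.53, 6.69 and 6.03 in mild 1 to mild 5. In severe cows the lowest, median and highest were 5.91, 6.19 and 7.02. Severe 5 was the highest of all cows, and mild 1 the lowest and the only dim value. The log2 difference was 0.18 ± 0.24 (SE), with an interval from -0.35 to 0.70 (limma adjusted p = 0.793), and -0.0073 without mild 1. HSD11B2, the enzyme that inactivates cortisol, was singled out as its counterpart after its values were seen. It differed by -0.74 ± 0.43 (SE, limma adjusted p = 0.488), with mild cows between 7.26 and 8.07 and severe cows between 5.62 and 8.56. In severe cows 4 of 6 lay below the lowest mild cow, and severe 3 lay above the highest. The HSD11B2 difference was 0.47 given the neutrophil score as a covariate and -0.37 without mild 2 and severe 5.

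OXTR, the receptor that oxytocin acts on in endometrium and muscle, was well above the dim limit in 11 of 11 cows. Its signals were 9.05, 8.51, 8.83, 9.20 and 9.68 in mild 1 to mild 5, and in severe cows the lowest, median and highest were 8.69, 8.86 and 9.45. The mild cows held both the lowest and the highest value, and 5 of 6 severe cows clustered between 8.69 and 8.97 with severe 4 above them. The log2 difference was -0.11 ± 0.19 (SE), with an interval from -0.53 to 0.32 (limma adjusted p = 0.850), and 0.05 without mild 5. With the smooth muscle score as a covariate it was -0.13, and with the neutrophil score -0.35.

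**Figure D2:**
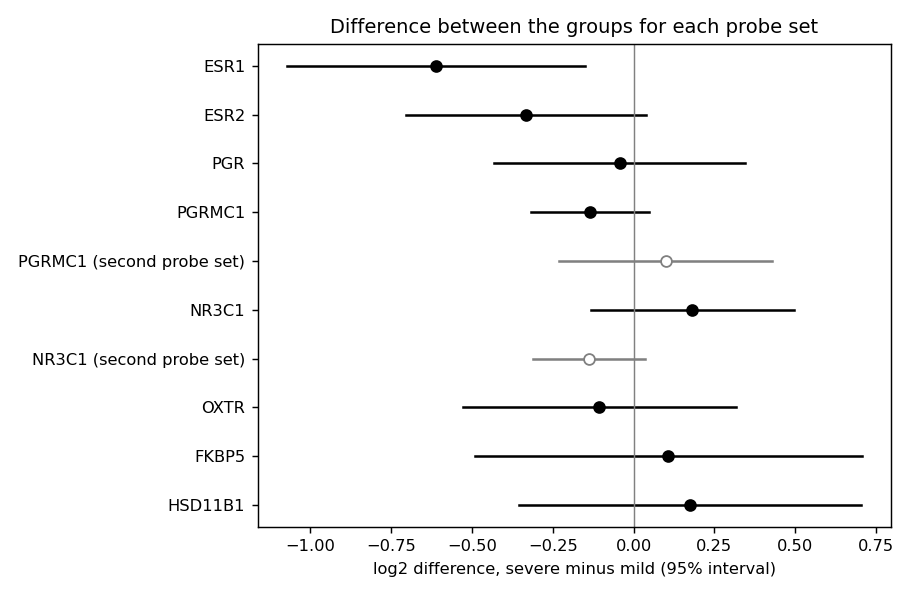
Log2 difference, severe minus mild (horizontal axis), with its 95% interval for the 10 probe sets of the 8 genes; filled points are main probe sets and open points second probe sets. The interval of ESR1, from -1.07 to -0.15, is the one that does not hold 0, and the second probe sets of PGRMC1 and NR3C1 lie on the other side of 0 from the main ones.

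The intervals show how closely these arrays fixed the signal of each gene. For ESR1, ESR2 and PGR, dim on average, differences are compressed, so their intervals bound the signal and not the transcript. Among main probe sets, 7 of 8 intervals held 0, and 7 of 8 lay wholly within 1 log2 unit of 0 in either direction, the exception on both counts being ESR1. A p that misses the threshold does not show that the groups were equal, and the intervals of FKBP5 and HSD11B1 reach 0.71 and 0.70. The sign was the same under every setting tried for ESR1 and ESR2. For PGRMC1 and NR3C1 the sign turned with the second probe set, and for PGR, OXTR, FKBP5 and HSD11B1 it turned when single cows were left out, or under other settings.

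**Figure D3:**
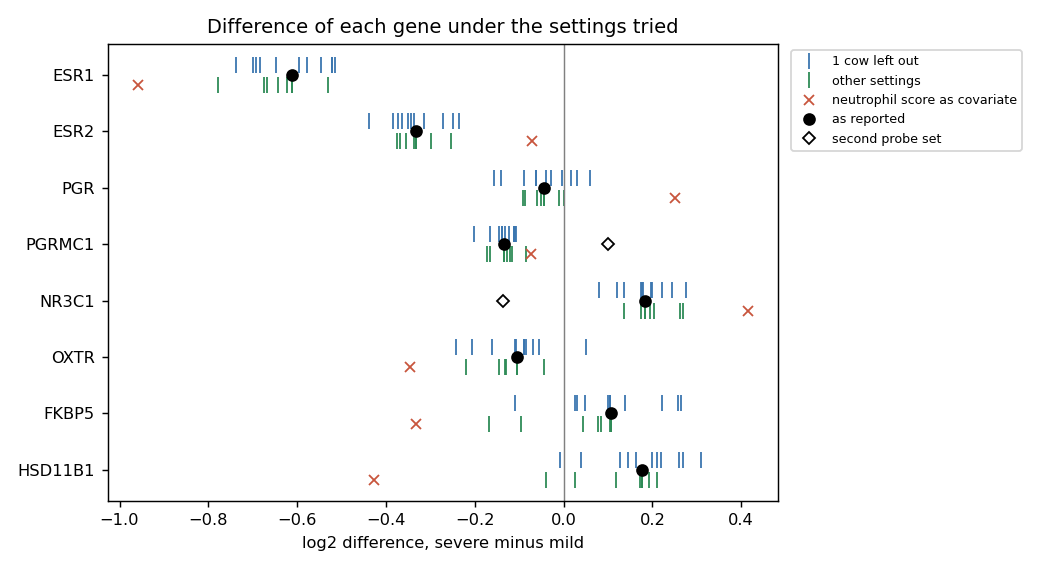
Log2 difference, severe minus mild (horizontal axis), of the 8 genes as reported (black), with each cow left out (blue), under the other settings (green), given the neutrophil score as a covariate (red crosses) and for a second probe set where there is one (diamonds); the mean over both probe sets is not drawn. ESR1 and ESR2 stay below 0 throughout, and PGR, OXTR, FKBP5 and HSD11B1 have points on both sides of 0.

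Relations between genes of the set were examined over the 11 cows in 6 pairs, and none passed. FKBP5 with HSD11B1 was the closest, with Pearson r of 0.50 (permutation p = 0.119, adjusted p = 0.711) and Spearman rho of 0.50 (permutation p = 0.123, adjusted p = 0.736). Without mild 2 and severe 3, the cows farthest from the median of FKBP5, r was 0.54 (exact permutation p = 0.131). It was 0.49 over deviations from the group means. ESR1 with PGR had r of 0.09 and rho of 0.14, ESR1 with OXTR r of -0.11 and rho of -0.15, and PGR with OXTR r of 0.19 and rho of 0.13. NR3C1 had r of -0.08 (rho -0.15) with FKBP5 and r of -0.20 (rho -0.05) with HSD11B1, and both r turned to 0.19 and 0.23 without mild 3 and mild 4. Permutation p for r in these other 5 pairs ran from 0.562 to 0.810 (adjusted p 0.810 in each) and for rho from 0.653 to 0.904 (adjusted p 0.858 to 0.904).

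Within the 6 severe cows the order was another one. There r was 0.64 for NR3C1 with FKBP5 (exact permutation p = 0.174), 0.58 for FKBP5 with HSD11B1 (exact permutation p = 0.221) and -0.52 for ESR1 with OXTR (exact permutation p = 0.293). It was -0.34 for PGR with OXTR, 0.22 for ESR1 with PGR and 0.16 for NR3C1 with HSD11B1 (exact permutation p from 0.422 to 0.746). The adjusted p within severe cows ran from 0.586 to 0.746 by exact permutation, and the sign differed from that over all cows for NR3C1 with FKBP5, NR3C1 with HSD11B1 and PGR with OXTR.

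For each gene of the set that was not dim, the genes with the most similar pattern over cows were found, as a description. They were sought among 7135 genes that were not dim, by Pearson r of deviations from the group means over 11 cows. With the largest of 7135 values chosen, a high r arises easily, and the points share the same RNA and array. For OXTR these were STX12, a syntaxin of endosomes (r = 0.95), CNRIP1, a binding partner of a cannabinoid receptor (0.92), and PIK3IP1, an inhibitor of PI3 kinase (0.91). For HSD11B1 they were BPNT2, a phosphatase of the Golgi (0.97), SMIM14, a small membrane protein (0.91), and ELOC, elongin C (0.91). NR3C1 was followed most closely by ATF1, a CREB family transcription factor (0.89), RNF44, a RING finger protein (0.88), and SNX5, a sorting nexin (0.87). FKBP5 had PPFIBP1, a liprin (0.89), CNOT6L, a deadenylase of mRNA (0.88), and RCAN1, a regulator of calcineurin (0.87). For PGRMC1 they were HDDC3, a small hydrolase (0.90), DNAJC10, a disulfide reductase of the endoplasmic reticulum (0.87), and CTSV, a lysosomal protease (0.87). ESR1, ESR2 and PGR were dim and were not used for this search. Of these 15 genes none passed the limma threshold, and the smallest adjusted p among them was 0.290, of DNAJC10.

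Genes around the receptors were then described in 8 lists, again without a call: 0 members of any list passed the limma threshold, and the counts that follow are at an unadjusted p under 0.05, where 15.9% of 9155 genes stood, 8.45% higher and 7.46% lower in severe cows. Of all genes 1.19% did not overlap between the groups and 48.9% had a higher mean in severe cows. The median log2 difference of all genes was -0.0038. The lists were chosen with earlier results of these data known, so a share above that of all genes is a description only. Without severe 1, CTSL (adjusted p = 0.0300) and SDS (adjusted p = 0.0467) passed.

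Chaperones and immunophilins that fold steroid receptors were 17 of 17 measured, and 16 had a lower mean in severe cows, where 51.1% of all genes did. The median log2 difference was -0.13, and 5 of 17 had an unadjusted p under 0.05, all lower. FKBP4, the immunophilin that competes with FKBP5 and favours receptor activity, was at 9.93, 10.17, 9.91, 10.39 and 9.02 in mild 1 to mild 5 and had a lowest of 8.55 and a median of 8.70 in severe cows. Mild 5 lay among the severe cows, severe 3, the highest of its group, lay among the mild ones, and 4 of 6 severe cows lay below the lowest mild cow. The log2 difference of FKBP4 was -0.90 ± 0.30 (SE, limma adjusted p = 0.308), and -0.36 given the neutrophil score as a covariate.

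Smaller differences made up the rest of the chaperone list. BAG1, a nucleotide exchange factor of HSP70, had 5 of 6 severe cows below the lowest mild cow, with a difference of -0.17 ± 0.06 (SE, limma adjusted p = 0.322). PPID, cyclophilin 40, differed by -0.29 ± 0.12 (SE, limma adjusted p = 0.349), its mild cows being between 9.19 and 9.78 and its severe cows between 8.98 and 9.42. The count of 5 was 9 without mild 5 and 11 after a second quantile normalization. It was 2 without mild 1 or without severe 4, 3 without mild 2, mild 3 or severe 6, and 1 without both mild 2 and severe 5 or given the neutrophil score as a covariate. The median of the list ran from -0.21 to -0.11 over these settings.

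**Figure D4:**
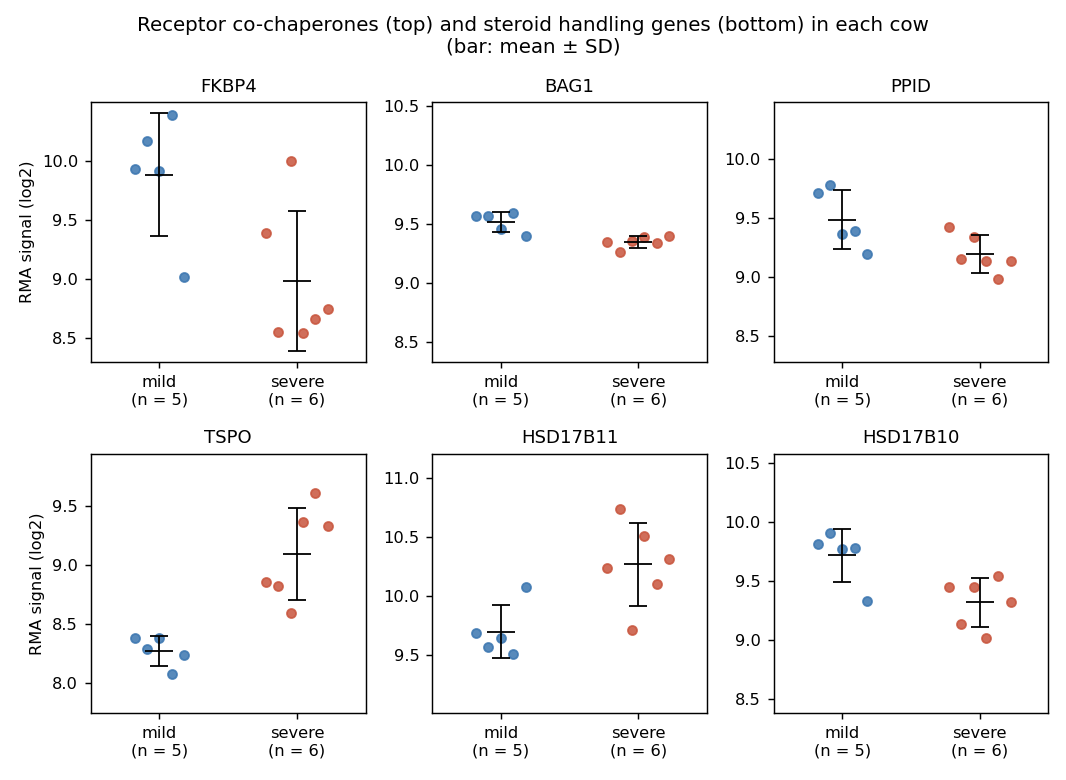
RMA signal (log2, vertical axis) in each cow for 3 receptor co-chaperones (top) and 3 genes of steroid handling (bottom), mild (blue, n = 5) and severe (red, n = 6), with the mean ± SD as bars and equal spans of axis. The groups do not overlap for TSPO, and mild 5 lies with the severe cows for FKBP4.

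Coregulators, which carry the signal of a bound receptor to chromatin, were 10 of 21 measured, with 5 higher and 5 lower and a median difference of -0.01. Of these, 4 had an unadjusted p under 0.05, 3 higher and 1 lower. NCOA7, an oestrogen receptor coactivator, lay between 7.88 and 8.31 in mild and between 8.22 and 8.70 in severe cows, a difference of 0.34 ± 0.10 (SE, limma adjusted p = 0.305). CREBBP, a histone acetyltransferase, differed by 0.26 ± 0.08 (SE), and 5 of 6 severe cows were above the highest mild cow. NCOA1, the p160 coactivator SRC-1, differed by 0.27 ± 0.09 (SE), and it too had 5 of 6 severe cows above the highest mild cow. The limma adjusted p of both was between 0.307 and 0.310. The count of 4 was 1 given the neutrophil score as a covariate.

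Of 16 other nuclear and membrane steroid receptors 5 were measured, 4 of them lower in the mean, with a median difference of -0.15. None had an unadjusted p under 0.05, though 1 did without mild 5 and 1, NR2F2, with the stromal score as a covariate. NR2F2 is itself among the markers averaged in that score, so that fit is not independent of the gene. NR2F1, an orphan receptor of the COUP-TF family, was between 9.27 and 10.98 in mild and 8.88 and 10.29 in severe cows, a difference of -0.57 ± 0.33 (SE, limma adjusted p = 0.483). Its relative NR2F2, which stromal cells express, differed by -0.17 ± 0.20 (SE), or by -0.0018 without mild 1, and NENF, a haem-binding relative of PGRMC1, by -0.15 ± 0.09 (SE). Without mild 1 the median of the 5 was -0.03.

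Genes that oestrogen is known to raise were 13 of 20 measured, 6 higher and 7 lower in severe cows, with a median difference of -0.04 that turned to 0.13 without severe 5. At an unadjusted p under 0.05 there were 4, all higher. C3, the central complement protein, lay between 10.50 and 12.13 in mild and 12.56 and 13.93 in severe cows, without overlap, and differed by 1.72 ± 0.34 (SE, limma adjusted p = 0.248). LTF, the iron-binding antimicrobial lactoferrin, differed by 0.91 ± 0.30 (SE), and CXCL12, a stromal chemokine, by 0.49 ± 0.16 (SE), both with a limma adjusted p of 0.308. Neutrophil, T and NK, and B and plasma cell markers were higher in the same group, and their part in these differences was not tested. Given the neutrophil score as a covariate C3 was at 0.50, LTF at -0.06 and CXCL12 at 0.78, the count was 1, and without mild 2 and severe 5 the count was 2.

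Progesterone responsive genes of the endometrium were 22 of 32 measured, 17 of them higher, with a median difference of 0.40. The unadjusted p was under 0.05 in 11, or 50% of the list, 8 higher and 3 lower. Because the list was chosen with earlier results known, this share does not test a response to progesterone. CTSL, a lysosomal protease, was dim in 5 of 5 mild cows at 3.90 to 4.62 and lay between 4.86 and 8.71 in severe cows, a difference of 2.88 ± 0.56 (SE, limma adjusted p = 0.248) whose size is compressed by the dim signals. STC1, the secreted glycoprotein stanniocalcin 1, lay between 5.51 and 7.23 in mild and 7.38 and 11.39 in severe cows, a difference of 2.68 ± 0.58 (SE, limma adjusted p = 0.269). IGFBP1, a binding protein of insulin-like growth factors, was dim in 5 of 5 mild cows and differed by 1.20 ± 0.28 (SE, limma adjusted p = 0.282). Given the neutrophil score as a covariate 0 of 22 had an unadjusted p under 0.05, and CTSL was at 0.52, STC1 at 0.76 and IGFBP1 at 0.83. Without mild 2 and severe 5 the median was 0.19.

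Glucocorticoid responsive genes were 23 of 30 measured, FKBP5 among them, and 17 were higher in the mean, with a median difference of 0.27. At an unadjusted p under 0.05 there were 8, all higher, in a list likewise chosen with earlier results known. SDS, the serine dehydratase of gluconeogenic tissue, lay between 5.15 and 6.60 in mild and 7.11 and 10.29 in severe cows, a difference of 2.88 ± 0.55 (SE, limma adjusted p = 0.248). ANGPTL4, an inhibitor of lipoprotein lipase that fatty acids also induce, differed by 0.74 ± 0.22 (SE, limma adjusted p = 0.301). IL1R2, a decoy receptor of interleukin 1 that the neutrophil marker list also holds, was dim in 5 of 5 mild cows at 3.88 to 4.27 and reached 10.35 in severe 5. The count of 8 was 5 without mild 2 or without mild 4, 4 without both mild 2 and severe 5, and 0 given the neutrophil score as a covariate, when the median was 0.0052, SDS was at 0.61 and ANGPTL4 at 0.17. It was 0.12 to 0.40 when single cows were left out.

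**Figure D5:**
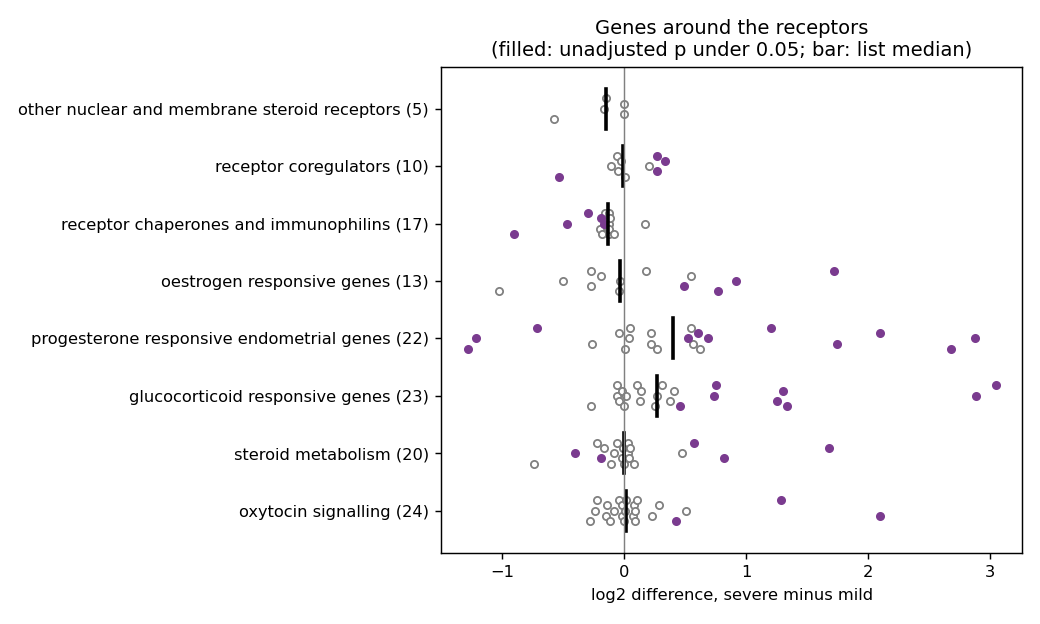
Log2 difference, severe minus mild (horizontal axis), of every measured gene in 8 lists around the receptors, with the number measured in brackets; filled points have an unadjusted p under 0.05, and black bars are list medians. Of 17 chaperone points 16 lie below 0, with a median of -0.13 and FKBP4 at -0.90. The progesterone list has points up to 2.88 and down to -1.28.

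Genes of steroid metabolism were 20 of 31 measured, 10 higher and 10 lower, with a median difference of -0.0059. At an unadjusted p under 0.05 there were 5, 3 higher and 2 lower, and 2 given the neutrophil score as a covariate. TSPO, a cholesterol-binding protein of the outer mitochondrial membrane that macrophages also express, lay between 8.08 and 8.39 in mild and between 8.59 and 9.61 in severe cows without overlap. Its difference was 0.82 ± 0.17 (SE, limma adjusted p = 0.249), and 8 of 9 macrophage markers were higher in severe cows, with scores of -1.08 to 0.18 in mild and -0.75 to 1.16 in severe cows, a part in this result that was not tested. TSPO was at 0.25 given the neutrophil score as a covariate. HSD17B11, a lipid droplet dehydrogenase, was higher by 0.57 ± 0.17 (SE) in severe cows and HSD17B10, a mitochondrial one, differed by -0.40 ± 0.12 (SE). Their limma adjusted p values were 0.301 and 0.306.

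Oxytocin signalling, from the peptide to its G proteins, kinases and prostaglandin synthases, had 24 of 35 genes measured, 13 higher and 11 lower, with a median difference of 0.01. At an unadjusted p under 0.05 there were 3, or 12.5%, against 15.9% of all genes. All 3 were higher, the side on which 8.45% of all genes stood. PTGS2, the inducible prostaglandin synthase, lay between 6.04 and 8.00 in mild and between 7.88 and 11.10 in severe cows, a difference of 2.10 ± 0.55 (SE, limma adjusted p = 0.285), and of 0.92 given the neutrophil score as a covariate. PTGS1, the constitutive one, differed by 1.29 ± 0.53 (SE), with mild cows between 5.81 and 6.57. Severe 1, at 5.80, was level with the lowest mild cow, and severe 5 was at 9.38. PRKCD, a protein kinase C, differed by 0.43 ± 0.16 (SE). The count was 5 without severe 1 or without severe 3, 1 without mild 2 and severe 5, and 0 given the neutrophil score as a covariate, when PTGS1 was at -0.43 and PRKCD at -0.13.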

How the data were processed

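Endometrial RNA of 11 cows was measured on 1 Affymetrix bovine array each. The authors deposited log2 signals per probe set made with RMA, per the submitters' processing notes; that they are log2 was read from the values. The sources used here do not give its version, the software or any filter. All array medians were equal at 6.20 while upper quartiles ran from 7.84 to 7.92, and how the medians were made equal is not given there. Arrays have no read depth, and their number limits the precision.

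Of 24128 probe sets 112 controls were left out. The annotation, dated 2016, gave 13292 of the other 24016 a single symbol, 86 several and 10638 none. Of the 13292, 13263 matched RefSeq (ARS-UCD2.0, names only) by Entrez number and 0 were renamed. The main probe set of a gene has the highest mean over the 11 arrays. Severe was compared with mild with limma 3.58.1 in R 4.3.3 (lmFit, eBayes, two-sided), Benjamini-Hochberg over 24016 probe sets, threshold 0.05; SE and 95% intervals are moderated. The procedure was tested on simulated data. Relations used 100000 permutations, or all orders where fewer than 10 cows entered. Lists were described by counts and medians with no test. Named genes are all members, the 3 of each list with the smallest p (none passed) and the 3 most correlated genes of each member that was not dim. HSD11B2, IHH, MSX1, HOXA10 and the dim markers KRT8 and OVOL1 are outside that rule and were named after their values were seen. Members, lists and tests were chosen with earlier results of these data known.

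Alternatives were a second quantile normalization, a shift of each array to the same median, array weights, eBayes with a trend and robust, a filter on the dimmest 40%, 4 marker scores as covariates, other probe sets, each cow left out, and the omission of mild 2 and severe 5, the arrays least correlated with the others. No batch or scan date is given per array, and the blocks used for allocation are not given per cow. Replicate numbers follow sample order. No sequence is printed. Python 3.11.15 and matplotlib 3.10.9 drew the figures.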

Additional observations from a re-analysis of the deposited data

Results flagged for a closer look

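The highest or lowest cow stood apart from the rest of its group in 4 of 64 groups of values checked (2 of 16 among genes of the set), and chance gives about 1 in 20. OXTR in severe 4 was at 9.45, with the other severe cows between 8.69 and 8.97. FKBP5 in severe 3 was at 5.55, with the others between 6.35 and 6.74. HSD17B10 in mild 5 was at 9.33, below the other mild cows at 9.77 to 9.90. NR2F2 in severe 6 was at 11.13, above the others at 10.41 to 10.68.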

How the results depend on the processing

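None of the 8 measured genes of the set passed the limma threshold under any setting tried. The signs of ESR1 and ESR2 were kept throughout. PGR turned to 0.0013 with the stromal and 0.25 with the neutrophil covariate, and ran from -0.156 to 0.0596 with each cow left out. OXTR ran from -0.242 to 0.0509 with each cow left out. FKBP5 was at -0.10 with array weights, -0.33 with the neutrophil score, -0.17 without mild 2 and severe 5, and from -0.11 to 0.26 with each cow left out; HSD11B1 was at -0.0387, -0.43 and from -0.0073 to 0.31 in the first, second and last of these. Second probe sets gave 0.10 for PGRMC1 and -0.14 for NR3C1. With the neutrophil score IL1R2 was at -0.47, LTF at -0.056, NR2F1 at 0.33, PPID at 0.041, PRKCD at -0.13 and PTGS1 at -0.43. IL1R2 is itself averaged in that score, so its own turn is partly built in. Under the same covariate 1361 probe sets had an unadjusted p under 0.05 in place of 3085. The lowest severe cow lay above the highest mild cow in that score. Leaving out each cow gave 0 to 16 called probe sets, and 0 to 1 in the progesterone and in the glucocorticoid list. At an adjusted p under 0.10 there were 0. NR3C1 turned to r of 0.19 with FKBP5 and 0.23 with HSD11B1 without mild 3 and mild 4. The common median changed little because array medians were already equal. The filter on dim probe sets leaves out ESR1, ESR2 and PGR, so it gives them no value. The cause of these changes was not tested. No paired analysis was possible because the labels give no pairing of cows.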

Other observations

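Among progesterone responsive genes, 3 with an unadjusted p under 0.05 were lower in severe cows while the list's median was higher, and they were chosen after their values were seen. IHH, the hedgehog ligand that epithelium makes in response to progesterone, was at 6.99, 7.86, 6.42, 6.34 and 5.74 in mild 1 to mild 5 and had a lowest of 4.77, a median of 4.91 and a highest of 6.51 in severe cows. Severe 1 and severe 3 lay within the mild range and the other 4 severe cows were dim, below every mild cow. MSX1, a homeobox factor of uterine epithelium, was between 10.67 and 12.14 in mild and between 8.13 and 11.49 in severe cows, and again severe 1 and severe 3 were the highest of the severe group. HOXA10, a regulator of uterine identity, was between 9.28 and 10.11 in mild and between 8.50 and 9.47 in severe cows. None passed the limma threshold over the settings tried (smallest adjusted p 0.143, for HOXA10). Their log2 differences were -1.28, -1.22 and -0.71, and when single cows were left out they stayed between -1.51 and -0.60. Given the neutrophil score as a covariate, IHH was at 0.21, MSX1 at 0.87 and HOXA10 at -0.34, and with the epithelial score they were at -1.20, -1.03 and -0.66. Without mild 2 and severe 5 the differences were -0.88 for IHH, -0.61 for MSX1 and -0.55 for HOXA10. PGR itself was dim in all 11 cows and differed by -0.04.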
